A study of Mus musculus with 6 samples.

Results

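The translation initiation and elongation factors were compared between irradiated and control mice in RNA of bone marrow cells labelled as regulatory T cells (Tregs), although granulocyte transcripts were the most abundant in every library. The genes were all those with a symbol of the families Eif1 to Eif6, Eef1 and Eef2, leaving out the 4 Eif2ak kinases. This rule uses symbols and no measured value, but it was chosen with earlier results of these data known. There were 65 such genes among 15483 listed. The 3 irradiated libraries came from wild-type mice 3 months after irradiation and the 3 control libraries from wild-type mice labelled as control. The labels give no dose, age or sex of the mice, and the series title speaks of premature ageing. The cells of both groups are described as sorted from marrow for the CD3+ CD4+ NK1.1- Foxp3+ phenotype, and RNA was sequenced from each sort as 1 library. Nothing in the labels ties the libraries of a group to different mice, and p-values cover only the spread between these libraries, which may be technical.

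Initiation factors bring the small ribosomal subunit, the initiator tRNA and the mRNA cap together and find the start codon. Elongation factors then deliver each charged tRNA and move the ribosome along the mRNA. In T cells the rate of these steps rises on activation and is set in part by the kinase mTOR, which acts on the repressors of the cap-binding protein eIF4E. Many mRNAs of ribosomal proteins and elongation factors begin with a run of pyrimidines, the 5′ terminal oligopyrimidine (TOP) tract, through which mTOR controls their translation.

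Values are FPKM, a fragment count divided by the length of the transcript and the depth of the library, so that levels of different genes can be set side by side. Column totals were 480854 to 485365 FPKM in irradiated and 451444 to 470375 FPKM in control libraries. The depth behind the values is not known in reads. Relative to control replicate 1, an estimate from the ratios of low values between libraries put it at 81.6% to 92.7% in irradiated and 98.5% to 103% in the other control libraries. The labelled cell type was checked by its markers. Foxp3 stood at 12.6 ± 0.795 FPKM (SD, n = 3) in irradiated and 22.6 ± 1.93 FPKM in control libraries. Cd3e, a signalling chain of CD3, stood at 24.96 ± 1.42 FPKM in irradiated and 39.5 ± 2.93 FPKM in control libraries. The granulocyte transcripts S100a8 and S100a9 stood at 39026 ± 427 and 29890 ± 1838 FPKM in irradiated libraries, against 25282 ± 1249 and 20146 ± 616 FPKM in control libraries. The summed level of 14 T cell core genes was 309 to 316 FPKM in irradiated and 506 to 527 FPKM in control libraries, and 12 of the 13 tested fell. The sum of 15 granulocyte markers was 101014 to 103953 FPKM in irradiated and 69227 to 74356 FPKM in control libraries, and 11 of 15 rose. These 15 genes held 21.0% to 21.5% of the summed FPKM in irradiated and 15.3% to 15.9% in control libraries, and S100a8 and S100a9 were the 2 highest genes in all 6 libraries. The labelled cell type is therefore in doubt, and the values below describe the RNA of these libraries and not of Tregs alone. The macrophage markers summed to 243 to 254 FPKM in irradiated and 698 to 739 FPKM in control libraries, and all 10 tested fell. Of the 10 tested B lineage markers 9 fell and 1 rose, Cd24a, which other blood cells also express. In addition 7 of 9 erythroid and 6 of 8 eosinophil markers fell, and 0 of the markers of these lists were at 0 in all 6 libraries. The 8 Treg markers summed to 115 to 129 FPKM in irradiated and 198 to 206 FPKM in control libraries, and 7 of them fell. These libraries thus hold transcripts of several marrow cell types whose markers differ between the groups, and their part in the factor results was not tested. In bulk RNA, fewer cells of a type and less RNA per cell cannot be told apart.

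Of the 65 factor genes, 62 met a minimum mean of 1 FPKM and were tested with limma on log2(FPKM + 1) over all 10666 genes that met it, adjusted after Benjamini and Hochberg and read at a threshold of 0.05. After irradiation 0 factor genes rose and 7 fell, which is 11.3% of those tested, against 16.6% called over all tested genes (6.29% higher and 10.3% lower). The share of factor genes that fell was near that over all genes in this fit, but the comparison turned on the scaling, the variance model and single libraries. On the TPM scale 24.2% of the factor genes fell, against 14.3% of all tested genes, and with median-of-ratios scaling 4.84%, against 8.80%. Without the variance trend it was 1.61%, against 8.67%. Leaving out control replicate 2 gave 3.23%, against 6.77%, and leaving out control replicate 3 gave 16.1%, against 9.17%. Without the adjustment, 4 factor genes were higher and 15 lower at p under 0.05, which is 19 of 62, against 29.6% of all tested genes. The 7 genes that fell were 4 core elongation factors (Eef2, Eef1g, Eef1d and Eef1a1), the eIF3 subunits Eif3f and Eif3h, and the eIF4E repressor Eif4ebp2. Their means were 12.1% to 19.1% lower in irradiated than in control libraries. The median log2 change of the tested factor genes was -0.08, beside -0.02 over all tested genes. In 3 factor genes every irradiated value lay above every control value (13.5% over all tested genes) and in 17 every irradiated value lay below (20.1% over all tested genes). Together the 65 genes made up 1.56% to 1.58% of the summed FPKM in irradiated and 1.74% to 1.85% in control libraries, and the groups did not overlap. Eef1a1 and Eef2 alone held 46.8% to 47.1% of the level of all factor genes in irradiated and 48.0% to 49.6% in control libraries. The share of the 65 genes thus rests in large part on these genes, and on column totals that differ between the groups.

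**Figure D1:**
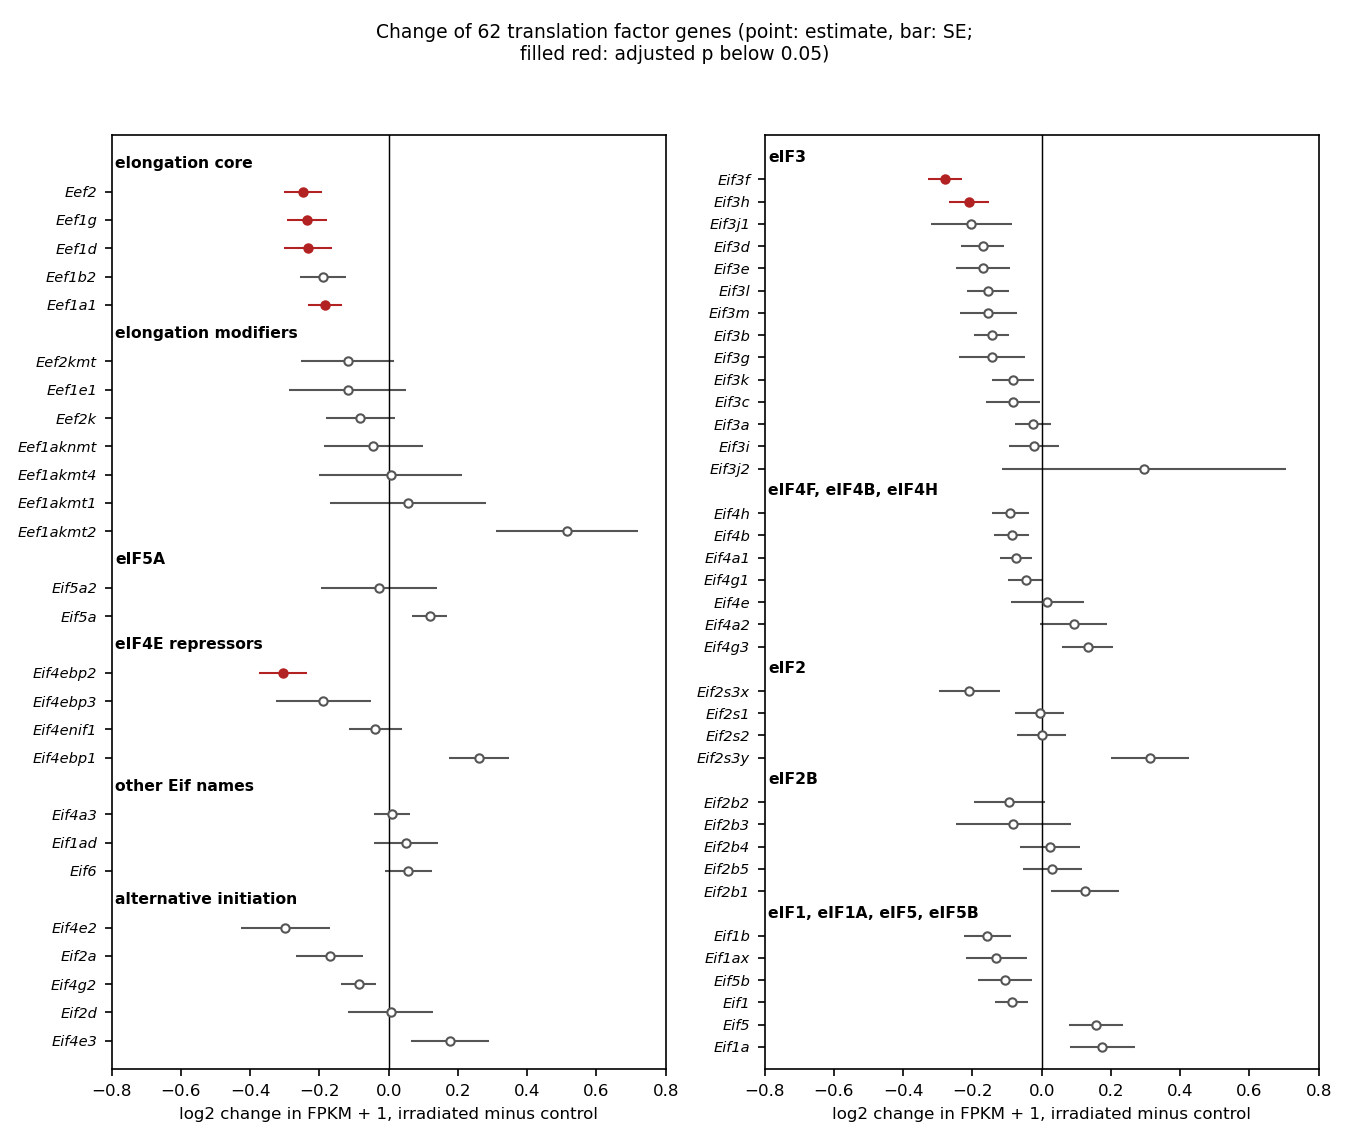
Log2 change of the 62 tested factor genes, irradiated minus control (x axis, log2 of FPKM + 1), grouped by role, with points for the estimate and bars for its standard error. The 7 filled red points are genes with an adjusted p below 0.05, and all of them lie left of 0, 4 of them in the elongation core.

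Most transcripts of the core elongation factors were lower after irradiation. Eef1a1 encodes eEF1A1, the GTPase that carries charged tRNA to the ribosome, and it was the most abundant factor transcript (chromosome 9, 78478449 to 78489151 in GENCODE M21 on GRCm38). It stood at 2829, 2784 and 2857 FPKM in irradiated libraries, against 3356, 3318 and 2967 FPKM in control libraries. The groups did not overlap, and control replicate 3 lay nearest to the irradiated libraries. The log2 change was -0.18 ± 0.05 (SE), and limma gave an adjusted p of 0.0285. The call held in 6 of 15 alternative fits, and in only 1 of the 6 among them that left out a library. Eef1a1 has processed pseudogenes of near-identical sequence, so that its reads could be split by the counting.

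Eef2 encodes eEF2, the GTPase that moves the ribosome by a codon after each peptide bond (chromosome 10, 81176631 to 81182498). Its levels were 744, 749 and 734 FPKM in irradiated libraries, against 923, 924 and 803 FPKM in control libraries. All irradiated values were below all control values, and control replicate 3 was again the lowest control. The log2 change was -0.25 ± 0.06, and limma gave an adjusted p of 0.0102. Eef2 passed in 12 of 15 alternative fits, and in 5 of the 6 among them that left out a library. Its kinase Eef2k, which inhibits eEF2, had 16.1 ± 1.80 FPKM in irradiated and 17.0 ± 1.07 FPKM in control libraries (adjusted p = 0.634 with limma).

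Eef1b2, Eef1d and Eef1g encode the subunits of eEF1B, the exchange factor that reloads eEF1A with GTP. Eef1g, the structural gamma subunit, had 256, 240.0 and 235 FPKM in irradiated libraries, against 305, 291 and 266 FPKM in control libraries. Eef1d, the delta subunit with exchange activity, had 44.3, 42.6 and 47.8 FPKM in irradiated libraries, against 55.7, 53.7 and 49.5 FPKM in control libraries. For both genes all irradiated values were below all control values. Their log2 changes were -0.23 ± 0.06 (Eef1g, adjusted p = 0.0177 with limma) and -0.23 ± 0.07 (Eef1d, adjusted p = 0.0415 with limma). Eef1b2, the alpha subunit, had 200.3, 209 and 200.4 FPKM in irradiated libraries, against 257, 231 and 211 FPKM in control libraries. These groups did not overlap either, by a margin of less than 2 FPKM, but the test was missed (log2 change -0.19 ± 0.07, adjusted p = 0.0761 with limma). The level of Eef1d per unit of Eef1g was 0.185 ± 0.0163 in irradiated and 0.185 ± 0.00176 in control libraries.

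Against 10.3% lower and 6.29% higher over all tested genes, 4 of the 5 tested core elongation genes fell and 0 rose. Their median log2 change was -0.23. Their summed level was 4026 to 4074 FPKM in irradiated and 4296 to 4897 FPKM in control libraries. The sixth, Eef1a2, the form of eEF1A known from muscle and neurons, was listed at 0 in 2 irradiated and 2 control libraries and at 0.0177 FPKM in the irradiated and 0.0562 FPKM in the control library left, and was not tested. These calls depended on single libraries and on the model. In the 6 fits that left out a library, 2, 1 and 2 of the 5 genes passed without irradiated replicates 1, 2 and 3, and 1, 0 and 5 without control replicates 1, 2 and 3. With median-of-ratios scaling only Eef2 passed, and without the variance trend 0 did.

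**Figure D2:**
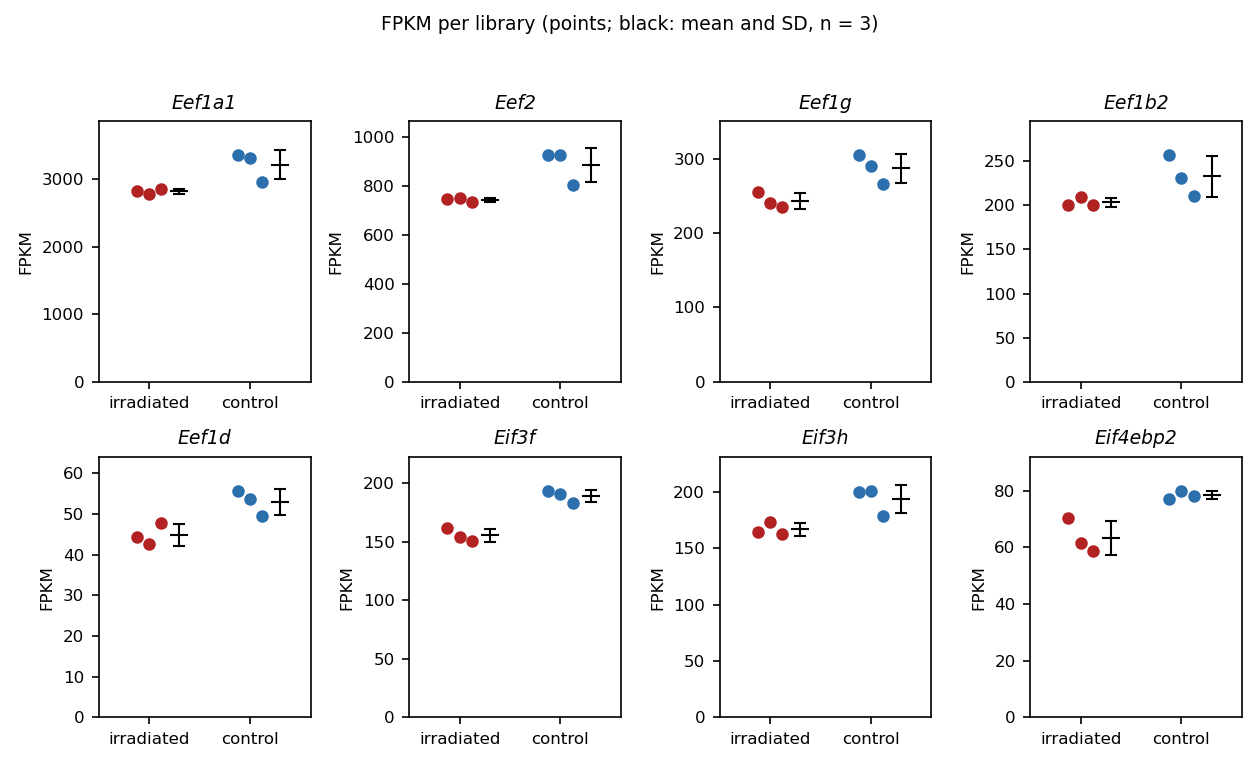
FPKM (y axis, from 0) of the 5 tested core elongation genes, Eif3f, Eif3h and Eif4ebp2 in each library, with irradiated libraries left and control libraries right and with the mean and SD (n = 3) in black. In each panel all irradiated points lie below all control points, and for the elongation genes control replicate 3, the rightmost blue point, is the lowest control.

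The annotated start sites of these genes are shown because a TOP tract lies at the start of an mRNA. Of the 65 factor genes 50 have a RefSeq start window (GRCm38.p6), among them 4 of the 7 genes that fell, namely Eef1a1, Eef2, Eif3f and Eif4ebp2. Each stretch runs from 20 bases before the RefSeq start to 25 bases from it on, on the strand of the gene, and the capitals mark its longest unbroken run of C and T. Eef1b2 and Eif4a1, which did not pass, are given beside them.
Eef1a1 (chr9:78481700-78481744, minus strand): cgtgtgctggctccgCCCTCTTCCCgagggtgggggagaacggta
Eef2 (chr10:81176611-81176655, plus strand): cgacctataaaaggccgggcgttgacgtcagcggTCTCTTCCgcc
Eif3f (chr7:108934395-108934439, plus strand): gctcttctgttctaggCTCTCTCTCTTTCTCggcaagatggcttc
Eif4ebp2 (chr10:61452645-61452689, minus strand): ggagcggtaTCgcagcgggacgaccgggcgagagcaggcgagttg
Eef1b2 (chr1:63176811-63176855, plus strand): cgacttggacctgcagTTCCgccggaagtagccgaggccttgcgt
Eif4a1 (chr11:69672399-69672443, minus strand): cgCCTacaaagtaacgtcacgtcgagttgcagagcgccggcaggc
The run was 10 bases long in Eef1a1, 8 in Eef2 and 15 in Eif3f, and 2 in Eif4ebp2, 4 in Eef1b2 and 3 in Eif4a1. In Eef1a1 and Eif3f it spanned the RefSeq start, and in Eef2 it began at base 15. Long runs were also present in factor genes that did not pass and are not shown. The longest run was 21 bases in Eif2b5, 16 in Eif2s3x, 12 in Eif2s3y, and 11 in Eif3k and Eif3m. A run of at least 8 bases of C and T was present on the strand of the gene in 17.7% of the 32851 RefSeq start windows and on the opposite strand in 19.6%. It was present in 16 of the 64 windows of the factor genes and in 46.1% of the 76 windows of cytosolic ribosomal protein genes, a list matched by symbol after the values were seen. These runs are a description of letters near an annotated start, which need not be the start used in these cells. None of them, that of Eef1a1 included, was shown to be the TOP tract of its mRNA. A tract outside a window would be missed. The motif CCGGAAG, a sequence that ETS factors can bind, was searched on both strands in the whole RefSeq promoter windows. It was present in 30.6% of the windows of tested factor genes, against 18.8% of the windows of all tested genes and 8.86% of all RefSeq windows.

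The cytosolic ribosomal protein genes, given here for their values beside the elongation factors, had 0 of 84 tested genes higher and 10 lower, which is 11.9% and near the 10.3% over all tested genes, with a median log2 change of -0.11. In 75 of the 84 (89.3%) the log2 change was below 0, against 54.8% of all tested genes. The difference between the ribosomal protein genes and the elongation factors was not tested.

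Of the 41 tested initiation genes 0 rose and 2 fell, which is 4.88%, against 10.3% lower over all tested genes. The median log2 change of the 41 was -0.08. The mean log2(FPKM + 1) of the 5 core elongation genes minus that of the 41 initiation genes was 3.10, 3.12 and 3.08 in irradiated libraries, against 3.35, 3.30 and 3.16 in control libraries. The groups did not overlap, and control replicate 3 lay closest to the irradiated libraries. The difference of the group means was -0.17, from 3.10 ± 0.0163 (SD, n = 3) in irradiated and 3.27 ± 0.0975 in control libraries. It is given with no test, since it is a score over chosen genes. It was -0.11 when Eif5a, set apart below, was counted as elongation, and -0.03 when all Eef symbols were set against all Eif symbols.

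**Figure D3:**
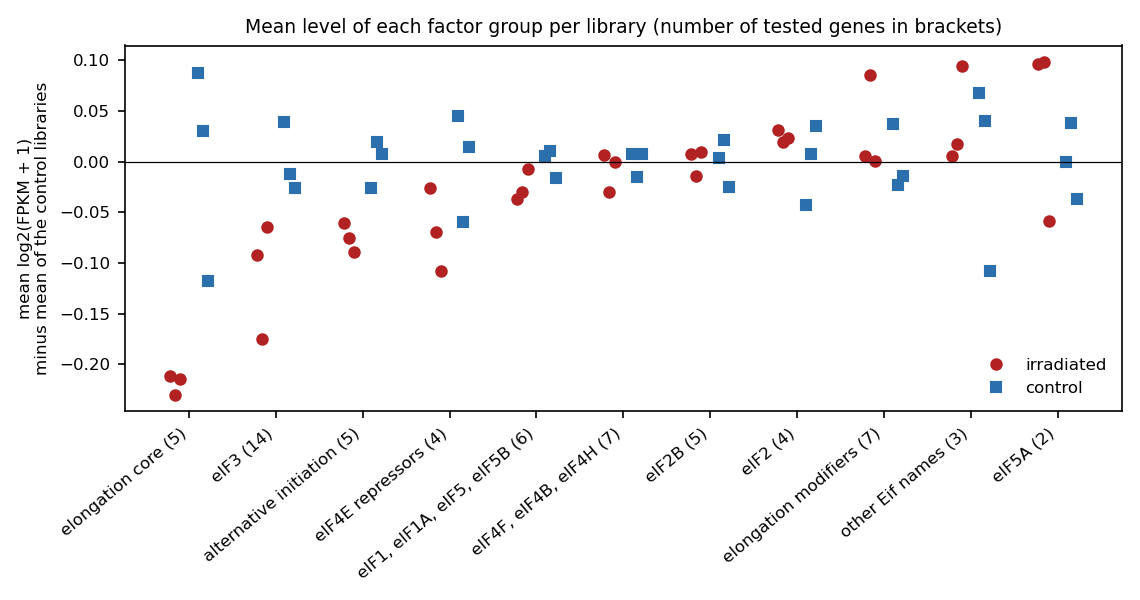
Mean log2(FPKM + 1) of each factor group in each library (y axis), as the difference from the mean of the 3 control libraries, with irradiated libraries as red circles left of control libraries as blue squares. The core elongation genes lie lowest in irradiated libraries, with a difference of -0.22 between the group means, followed by eIF3 at -0.11.

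eIF3 is the scaffold complex that holds the small subunit, the mRNA and eIF4G together. Of its 14 tested genes 0 rose and 2 fell, which is 14.3%, against 10.3% lower over all tested genes. In 13 of the 14 the log2 change was below 0, where this held for 54.8% of all tested genes. It also held for 89.3% of the tested cytosolic ribosomal protein genes. The same was true of all 8 tested genes of the poly(A)-binding proteins and their partners. Eif3f (chromosome 7, 108934417 to 108942951), a subunit with an MPN domain, had 162, 154 and 151 FPKM in irradiated libraries, against 193, 191 and 183 FPKM in control libraries. Eif3h (chromosome 15, 51786558 to 51865523), the other MPN subunit, had 164, 173 and 163 FPKM in irradiated libraries, against 200.1, 201 and 179 FPKM in control libraries. For both genes all irradiated values were below all control values. Eif3f had the lowest adjusted p of all factor genes (log2 change -0.28 ± 0.05, adjusted p = 0.00254 with limma) and passed in all 15 alternative fits, at adjusted p from 0.000343 to 0.0443. Eif3h had a log2 change of -0.21 ± 0.06 (adjusted p = 0.0285 with limma) and passed in 8 of 15 alternative fits, among them only those without irradiated replicate 2 and without control replicate 3 of the 6 that left out a library.

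The other subunits did not pass. In 3 of them, Eif3b, Eif3d and Eif3l, the irradiated values also lay below all control values, which held for 20.1% of all tested genes. The subunits named here beside Eif3f and Eif3h were chosen after their values were seen. Eif3b, which holds the mobile module of eIF3, had 89.6 ± 1.32 FPKM in irradiated and 99.2 ± 2.26 FPKM in control libraries (log2 change -0.14 ± 0.05, adjusted p = 0.0752 with limma). Eif3d, a subunit that can bind the cap, had 73.0 ± 1.99 FPKM in irradiated and 82.4 ± 5.68 FPKM in control libraries (adjusted p = 0.0908 with limma). Eif3a, the largest subunit, had 88.8 ± 0.594 and Eif3i 91.6 ± 6.69 FPKM in irradiated libraries, against 90.4 ± 3.03 and 93.1 ± 7.81 FPKM in control libraries. The 12 subunits other than the loosely bound eIF3j had means between 76.3 FPKM for Eif3m and 180.0 FPKM for Eif3h over the 6 libraries. Their average level was 102, 102 and 103 FPKM in irradiated libraries, against 119, 116 and 106 FPKM in control libraries. The spread of levels across these subunits, as a coefficient of variation, was 27.4% to 31.0% in irradiated and 32.3% to 34.3% in control libraries, and the subunits that fell, Eif3f and Eif3h, are the most abundant of the 12. Eif3j1 and Eif3j2 are near-identical copies between which reads can be split. Eif3j2 ranged from 0.953 to 3.25 FPKM in irradiated and from 0.654 to 4.34 FPKM in control libraries, so its log2 change of 0.30 ± 0.41 carries no direction.

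The cap-binding complex eIF4F and its helpers gave no call in 7 tested genes, with 4 log2 changes below 0 and a median of -0.05. Eif4a1, the main helicase subunit that unwinds the 5′ leader, had 285, 269.7 and 286 FPKM in irradiated libraries, against 303, 298 and 285 FPKM in control libraries. These groups overlapped (log2 change -0.07 ± 0.05, adjusted p = 0.317 with limma). Eif4a2, its paralog, had 51.7 ± 3.08 FPKM in irradiated and 48.7 ± 7.46 FPKM in control libraries (adjusted p = 0.578 with limma). Eif4e, which binds the cap, was far lower, at 10.2, 9.20 and 9.28 FPKM in irradiated libraries, against 10.5, 9.23 and 8.68 FPKM in control libraries. The groups overlapped, and the log2 change was 0.02 ± 0.11. Eif4h, a cofactor of the helicase, had 134 ± 2.43 FPKM in irradiated and 142 ± 6.97 FPKM in control libraries (adjusted p = 0.282 with limma). Eif4g3, a paralog of the scaffold gene Eif4g1, had 28.7 ± 0.924 FPKM in irradiated and 26.1 ± 1.71 FPKM in control libraries (adjusted p = 0.267 with limma).

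Of the 4 tested repressors and carriers of eIF4E 1 fell, beside 10.3% of all tested genes. Eif4ebp2 (chromosome 10, 61428491 to 61452661) encodes a protein that sequesters eIF4E until mTOR phosphorylates it. It fell to 70.1, 61.5 and 58.5 FPKM in irradiated libraries, against 77.0, 79.9 and 78.0 FPKM in control libraries. The groups did not overlap, and the 3 control values lay within 3 FPKM of each other. The log2 change was -0.31 ± 0.07, and limma gave an adjusted p of 0.0118. The call held whichever library was left out, with 0.0495 as the highest adjusted p. Without the variance trend the adjusted p was 0.0648.

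Eif4ebp1 (chromosome 8, 27260329 to 27276674), its paralog with the same action, had 58.5, 54.0 and 51.4 FPKM in irradiated libraries, against 51.7, 44.4 and 40.7 FPKM in control libraries. The lowest irradiated value lay just under the highest control value, so the groups overlapped (log2 change 0.26 ± 0.09, adjusted p = 0.0680 with limma). The level of Eif4ebp1 per unit of Eif4ebp2, which does not depend on the scaling of a library, was 0.834, 0.879 and 0.878 in irradiated libraries, against 0.672, 0.556 and 0.522 in control libraries. These groups did not overlap, and the two-sided exact permutation p was 0.1, the smallest that 3 against 3 allows. It was 1 of 17 such values computed per library, of which 10 reached that p, and the lowest Benjamini-Hochberg adjusted p over the 17 was 0.17. Both repressors summed, per unit of Eif4e, gave 12.3 ± 0.414 in irradiated and 13.1 ± 0.753 in control libraries (exact permutation p = 0.3). Eif4ebp3, a further paralog, had 9.19 ± 1.12 FPKM in irradiated and 10.7 ± 1.90 FPKM in control libraries, and Eif4enif1, which carries eIF4E into the nucleus, had a log2 change of -0.04 ± 0.08.

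**Figure D4:**
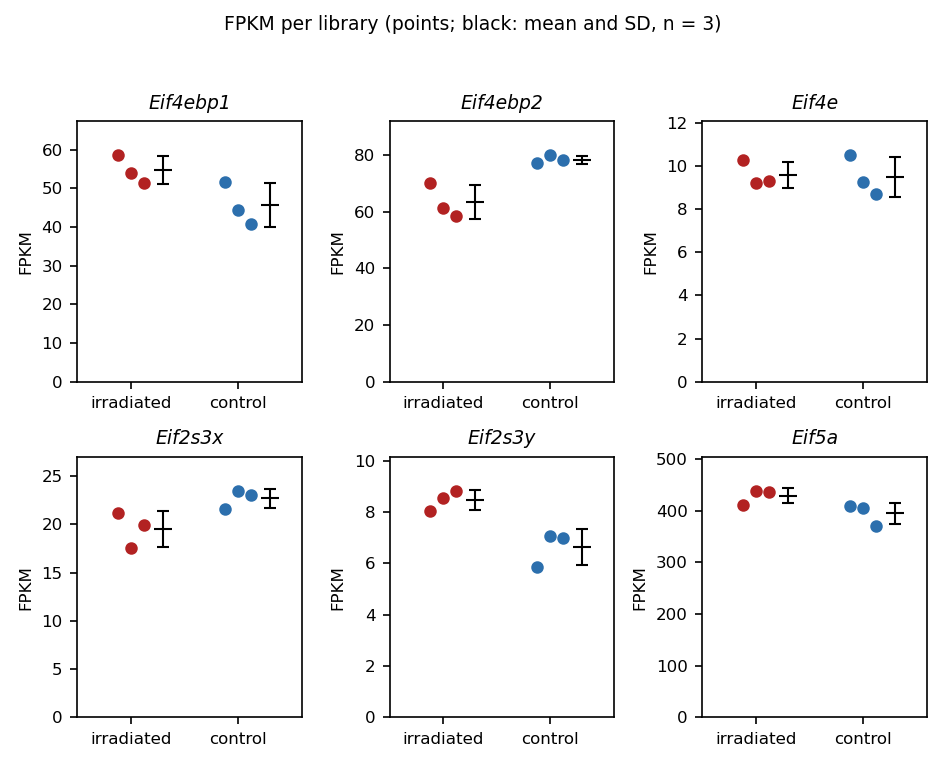
FPKM (y axis, from 0) of Eif4ebp1, Eif4ebp2, Eif4e, Eif2s3x, Eif2s3y and Eif5a in each library, with irradiated libraries left and control libraries right and with the mean and SD (n = 3) in black. Eif4ebp2 and Eif2s3x lie lower and Eif2s3y and Eif5a higher in all irradiated libraries than in all control libraries, while the groups overlap for Eif4ebp1 and Eif4e, and of these genes only Eif4ebp2 passed the test.

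eIF2 carries the initiator tRNA, and none of its 4 tested genes passed. The alpha subunit gene Eif2s1, the target of the stress kinases, had 30.0 ± 0.962 FPKM in irradiated and 30.1 ± 1.76 FPKM in control libraries, and the beta subunit gene Eif2s2 had 37.7 ± 2.18 FPKM in irradiated and 37.7 ± 2.11 FPKM in control libraries. The gamma subunit, which binds GTP and the tRNA, is encoded on the X chromosome by Eif2s3x (94188707 to 94212862) and in the mouse also on the Y chromosome by Eif2s3y (1010543 to 1028847). Eif2s3x had 21.2, 17.5 and 19.9 FPKM in irradiated libraries, against 21.6, 23.5 and 23.0 FPKM in control libraries. Eif2s3y had 8.05, 8.54 and 8.83 FPKM in irradiated libraries, against 5.85, 7.07 and 7.01 FPKM in control libraries. In neither gene did the groups overlap, and neither passed, at log2 changes of -0.21 ± 0.09 (Eif2s3x, adjusted p = 0.136 with limma) and 0.31 ± 0.11 (Eif2s3y, adjusted p = 0.0856 with limma). Eif2s3y made up 27.6%, 32.8% and 30.7% of the summed level of both copies in irradiated libraries, against 21.3%, 23.1% and 23.3% in control libraries. Since Eif2s3y already lay above and Eif2s3x below all control values in the irradiated libraries, this share could only separate the groups. Its permutation test (p = 0.1, the floor for this design) therefore adds no evidence beyond those separations. Of the 17 values so tested, 10 reached that floor. Similar sequence of the copies leaves the split of reads between them uncertain. The other Y-linked genes measured did not pass: Ddx3y had 15.9 ± 0.879 FPKM in irradiated and 14.3 ± 2.11 FPKM in control libraries, and Kdm5d and Uty had log2 changes of -0.03 ± 0.14 and -0.01 ± 0.14.

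eIF2B recharges eIF2 with GTP, and none of its 5 tested genes passed, with a median log2 change of 0.02. Eif2b2, its beta subunit gene, had 33.4 ± 3.89 FPKM in irradiated and 35.8 ± 4.27 FPKM in control libraries. Eif2b5, the catalytic epsilon subunit gene, had 21.8 ± 1.22 FPKM in irradiated and 21.3 ± 1.86 FPKM in control libraries. Eif2b1, the alpha subunit gene, had 12.1 ± 0.150 FPKM in irradiated and 11.1 ± 0.990 FPKM in control libraries without overlap (log2 change 0.13 ± 0.10, adjusted p = 0.434 with limma).

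Of the 6 tested genes of start codon selection and subunit joining none passed. Eif1, which guards the choice of the start codon, had 191, 186 and 191 FPKM in irradiated libraries, against 200.1, 194 and 209.6 FPKM in control libraries. These did not overlap, at a log2 change of -0.09 ± 0.05 (adjusted p = 0.252 with limma). Its paralog Eif1b had 54.0 ± 3.17 FPKM in irradiated and 60.4 ± 3.70 FPKM in control libraries (adjusted p = 0.149 with limma). Eif5, which triggers GTP hydrolysis by eIF2, had 79.7 ± 4.75 FPKM in irradiated and 71.6 ± 7.69 FPKM in control libraries, with overlap (log2 change 0.16 ± 0.08, adjusted p = 0.214 with limma). Of the 5 tested genes of alternative initiation none passed. Eif4g2, an eIF4G paralog that lacks the eIF4E site, had 124 ± 3.04 FPKM in irradiated and 132 ± 4.06 FPKM in control libraries. Eif4e2, a cap-binding paralog of eIF4E, had a log2 change of -0.30 ± 0.13 (adjusted p = 0.148 with limma), and Eif2a, which can deliver initiator tRNA without eIF2, of -0.17 ± 0.10 (adjusted p = 0.271 with limma).

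eIF5A was set apart from both classes, because it carries an initiation factor's name and acts on stalled ribosomes in elongation and on termination, after the modification of a lysine to hypusine. Eif5a had 412, 438 and 435 FPKM in irradiated libraries, against 409, 405 and 371 FPKM in control libraries. All irradiated values lay above all control values, by a margin of under 3 FPKM, and the test was missed (log2 change 0.12 ± 0.05, adjusted p = 0.142 with limma). The level of Eif5a per unit of Eef2 was 0.554, 0.585 and 0.594 in irradiated libraries, against 0.443, 0.438 and 0.462 in control libraries. These groups could not overlap, since Eif5a already lay above and Eef2 below all control values in the irradiated libraries. The permutation test of this ratio (p = 0.1, the floor for this design) therefore adds no evidence on Eif5a, which missed its own test. Eif5a2, its paralog, had 1.01 ± 0.276 FPKM in irradiated and 1.04 ± 0.0676 FPKM in control libraries.

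The enzymes that modify the elongation factors, the remaining Eef name Eef1e1, a scaffold gene of the synthetase complex, and the remaining Eif names gave no call. Among the 7 tested genes with Eef names here, the lysine methyltransferase gene of eEF1A Eef1akmt2 had 7.76, 4.32 and 7.65 FPKM in irradiated libraries, against 3.15, 4.61 and 4.93 FPKM in control libraries. The groups overlapped (log2 change 0.52 ± 0.21, adjusted p = 0.117 with limma). Eef1akmt1, another such gene, had a log2 change of 0.06 ± 0.22, and Eef1akmt3 was at 0 in 2 libraries of each group and was not tested. Eif6, which keeps the ribosomal subunits apart, had 78.7 ± 3.15 FPKM in irradiated and 75.8 ± 5.88 FPKM in control libraries. Eif4a3, the helicase of the exon junction complex, had 98.4 ± 2.46 FPKM in irradiated and 97.7 ± 3.39 FPKM in control libraries. Eif4a3l1, a copy of it, was at 0 in 5 of 6 libraries and was not tested.

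Level and precision went together. Among the 30 tested factor genes at or above a mean of 50 FPKM, 6 fell and 24 had a log2 change below 0, with a median of -0.09 and a median standard error of 0.06. Of the 32 below 50 FPKM, 1 fell, Eef1d at a mean of 48.9 FPKM, and 18 had a log2 change below 0, with a median of -0.02 and a median standard error of 0.10. A change of the size seen in the elongation genes was therefore harder to call in the scarcer factors. Control replicate 3 was the lowest of the 3 control libraries in 39 of the 62 tested factor genes, against 30.7% of all tested genes.

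**Figure D5:**
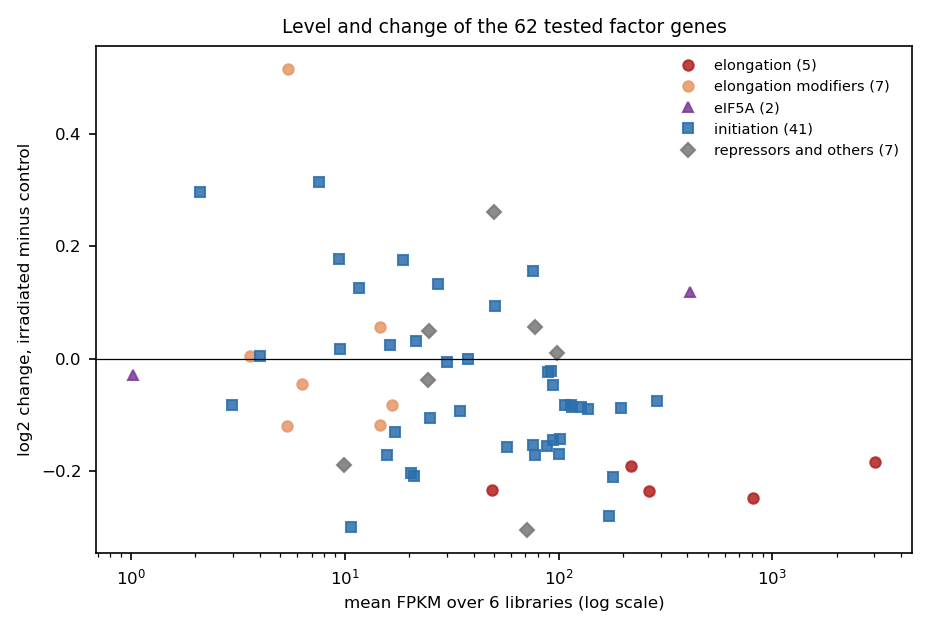
Log2 change, irradiated minus control (y axis), against the mean FPKM over the 6 libraries on a log scale (x axis) for the 62 tested factor genes, with colour and shape for the class. The 5 elongation genes lie between -0.25 and -0.18 at means from 48.9 to 3019 FPKM, while Eif5a lies above 0 at 412 FPKM.

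Other genes of the pathway were read from lists chosen for their role, against the 6.29% higher and 10.3% lower over all tested genes. Of 8 tested genes of the poly(A)-binding proteins and their partners 0 rose and 3 fell (median log2 change -0.14). Pabpc1, which binds the poly(A) tail and contacts eIF4G, had 389, 392 and 404 FPKM in irradiated libraries, against 457, 466 and 434 FPKM in control libraries, a log2 change of -0.20 ± 0.04 (adjusted p = 0.0108 with limma). Paip2 and Paip2b, which encode inhibitors of that protein, changed by -0.29 ± 0.07 and -0.42 ± 0.13. Without control replicate 2 none of these 3 passed, and without control replicate 1 or with median-of-ratios scaling 1 did.

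Of 12 tested genes of the integrated stress response 1 rose and 1 fell (median -0.08), a share of 16.7% beside the 16.6% called over all tested genes. The count higher was 3 without control replicate 3, with median-of-ratios scaling or with a minimum mean of 5 FPKM, and the count lower was 2 without control replicate 2. Asns, the asparagine synthetase induced in that response, had 19.2, 18.9 and 20.01 FPKM in irradiated libraries, against 9.79, 7.93 and 9.04 FPKM in control libraries. It rose by 1.04 ± 0.10 on the log2 scale (adjusted p = 2.77e-05 with limma), the groups were far apart, and the call held in all 15 alternative fits. Eif2ak2 encodes PKR, a kinase of eIF2 that interferon induces. It had 13.0, 11.1 and 13.0 FPKM in irradiated libraries, against 20.05, 21.3 and 21.5 FPKM in control libraries (log2 change -0.72 ± 0.09, adjusted p = 0.000252 with limma).

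Of 21 tested genes of a list for mTORC1 and S6 kinase, which also holds Mknk2, 3 rose and 2 fell (median 0.04). Rps6kb2, an S6 kinase gene, rose by 0.54 ± 0.15 (adjusted p = 0.0337 with limma). Tbc1d7, a subunit gene of the TSC complex that restrains mTORC1, rose by 0.78 ± 0.21 (adjusted p = 0.0254 with limma). Mknk2, a kinase gene for eIF4E, fell to 74.9 ± 4.40 FPKM in irradiated libraries, against 89.1 ± 1.24 FPKM in control libraries. Rps6kb2 and Tbc1d7 each passed in 2 of the 6 fits that left out a library, and Mknk2 in 4. Without control replicate 2 none of the 5 called genes passed. None of the rises passed without irradiated replicate 2, with no filter or without the variance trend. Of 22 aminoacyl-tRNA synthetase and scaffold genes only Aimp2, a scaffold of the synthetase complex, was called (log2 change -0.41 ± 0.08, adjusted p = 0.00612 with limma). Of 9 mitochondrial translation factor genes only Tufm, the mitochondrial elongation factor Tu, was called (-0.32 ± 0.08, adjusted p = 0.0242 with limma), and that call was lost without irradiated replicate 1 or 3 and without control replicate 1 or 2, with 0.0986 as the highest adjusted p. None of 7 termination and recycling genes, 9 genes of diphthamide and hypusine synthesis and 12 ribosome-associated regulators passed, with medians of -0.01, 0.12 and -0.06.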

How the data were processed

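RNA of sorted cells was made into libraries with a TruSeq Stranded mRNA kit, per the labels' protocols. The submitters' processing notes name fastp, HISAT2 and StringTie with the GRCm38 and mm10 builds. For these tools no version is given in the sources used here. Per gene and library the authors deposited 1 value, read as FPKM from the values, since the file headers name no unit (totals differ, values are not whole, and StringTie writes FPKM). Reads behind a value are unknown, strand use in counting is not stated, and near-identical copies and overlapping genes may share reads. A minimum mean of 1 FPKM left the genes to be tested, and limma 3.58.1 (R 4.3.3) was fitted to log2(FPKM + 1) (empirical Bayes with a variance trend, no covariates), with Benjamini-Hochberg adjustment over 10666 genes, and adding 1 shrinks the fold change of low genes. The fit was tested on simulated data with added log2 changes larger than those of the called factor genes. Its recovery of changes of their size was therefore not tested. Exact two-sided permutation tests were run on 17 values per library: ratios and shares, and a sum and a mean in FPKM, which depend on the scaling. Factor genes were taken by symbol. Each role group's 2 most abundant genes, its gene with the lowest p, all called genes and a set list of paralogs were named. Members and gene lists were chosen with earlier results of these data known. Start windows come from RefSeq (GRCm38.p6), positions from GENCODE M21, which held 63 of the 65 genes. Alternatives covered the pseudocount, filter, scaling, variance model, replicate block and single libraries.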

Additional observations from a re-analysis of the deposited data

How the results depend on the processing

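The count of factor genes that fell was 7 in the reported fit and stayed at 7 with a pseudocount of 0.1, a minimum mean of 5 FPKM or only genes above 0 in all 6 libraries. It was 2 with no filter, 15 on the TPM scale, 3 with median-of-ratios scaling, 8 with quantile normalization and 1 without the variance trend, and it ranged from 2 without control replicate 2 to 10 without control replicate 3. The count that rose was 0, and was 2 with quantile normalization and 0 to 1 when single libraries were left out. The count of core elongation genes that fell was 4, against 0 with no filter, 5 on the TPM scale and with quantile normalization, 1 with median-of-ratios scaling, 0 without the trend and 0 to 5 when single libraries were left out, with 0 without control replicate 2 and 5 without control replicate 3. The value of elongation minus initiation, irradiated minus control, was -0.17, and between -0.13 and -0.22 when single libraries were left out. It was -0.11 with Eif5a counted as elongation and -0.0314 with all Eef against all Eif symbols. The cause of these shifts was not tested. Over all genes 671 rose and 1100 fell, against 461 and 1522 on the TPM scale, 813 and 939 with median-of-ratios scaling and 836 and 969 with quantile normalization. None of the 7 called genes changed sign in 15 alternatives. With the replicate number of the titles as a replicate block, 5 factor genes fell, 1 rose (Eif4ebp1) and 2 core elongation genes fell, but same-numbered libraries did not deviate together (correlations of 0.01, -0.04 and -0.02), so the libraries share only a number. With the depth in reads unknown and 3 libraries a group, changes in the scarcer factors were less detectable.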
